A study of Mus musculus with 194 samples.

Results

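The genes described here were 35 mouse genes of the interferon response and of antigen presentation on MHC class I, taken as a list of symbols. All 35 were found among the 23420 gene names of the deposited table. They were read in 178 single-cell libraries (CD8+ T-cells 97, L1210 cells 81) after removal of doublets and of libraries with fewer than 1000 genes above 0 TPM from the 194 libraries deposited. The list comprised 6 transcription factors and regulators, 11 antiviral interferon-stimulated genes, 7 interferon-inducible GTPases, 5 subunits of the immunoproteasome and of its activator PA28, 3 genes of peptide transport and loading and 3 MHC class I chains.

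Interferons bind receptors at the cell surface and signal through Janus kinases to STAT proteins, which enter the nucleus and switch on a shared programme of genes. Type I interferons act mainly through a complex that holds STAT2 and IRF9 and binds the interferon-stimulated response element, whereas interferon-gamma acts mainly through the gamma-activated site and through IRF1, which it induces. In lymphocytes part of this programme is devoted to antigen presentation. The immunoproteasome cuts proteins into peptides, the TAP transporter carries the peptides into the endoplasmic reticulum, tapasin helps to load them, and MHC class I molecules display them to CD8+ T-cells.

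Single cells were cultured for 2 generations in an array of hydrodynamic traps, released and sequenced one by one by Smart-Seq2, so that the sisters and cousins of most cells were known. The CD8+ T-cells were purified from spleens of C57BL/6J mice, males and females of 4 to 16 weeks (6 in total), activated for 30 h with plate-bound antibody to CD3 and soluble antibody to CD28, and then grown with 100 U per ml of IL2. L1210 is a mouse lymphocytic leukemia line, here of a DBA subline 212, that divides without stimulation. Neither cell type was given an interferon or an inhibitor of one. Because the mouse strain, the activation, the IL2 and the transformed state all differ between the cell types, a difference between them cannot be assigned to any of these. The labels name no mouse or culture, so lineages served as replicates (34 for the T-cells and 26 for the leukemia line), and no p-value below covers variation between mice or cultures. Tests over lineage means were set against the spread between lineages, and tests over cells against the spread between cells of 1 lineage.

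Most marker genes followed the labels, with 1 lineage as an exception. Transcripts of Cd3e, part of the antigen receptor of T-cells, were found in all 97 CD8+ T-cells and in 0 of 81 L1210 cells. Those of Vpreb1, part of the pre-B-cell receptor, were found in 78 of 81 L1210 cells and in 0 of the 97 CD8+ T-cells. The summed TPM of 9 B-lineage markers ranged from 0 to 283 with a median of 2.67 in CD8+ T-cells and from 545 to 5304 with a median of 2750 in L1210 cells, with Igll1 and Pax5 also at 0 in every CD8+ T-cell but Cd79b above 0 in 47 of them (up to 283 TPM) and Cd79a in 10. That of 11 myeloid and dendritic markers ranged from 0 to 701 (median 134) and from 0 to 1033 (median 261). In CD8+ T-cells Lyz2 and Cd14 were at 0 in all cells and Cst3 was above 0 in 91, while in L1210 cells Lyz2 was above 0 TPM in 36 and Cd14 in 41 of 81 cells. That lineage was CD8_83, whose 4 cells carried Cd3e at 408 to 557 TPM but Cd8a at no more than 1.87 TPM and Cd8b1 at 0. All 93 cells of the other lineages had both CD8 chains above 0 TPM. The calls between cell types, between lineages and with Gzmb were also made without it, while the Ifng, time and co-variation results include it. The number of genes above 0 TPM ranged from 2639 to 10905 (median 6862) in CD8+ T-cells and from 1610 to 10454 (median 8402) in L1210 cells. TPM keep no read depth, so this number stands in for it, and 4 libraries that stood apart (CD8_7, CD8_34, L1210_8 and L1210_15) were also left out in an alternative.

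The promoters of 7 of the genes are shown because the results below turn on them. Igtp had the largest difference between the cell types, Irf8 and Gbp3 were the only members called lower in CD8+ T-cells, Irf1 is the regulator that interferon-gamma induces, B2m differed between lineages of both cell types, Bst2 rose with Gzmb, and Isg15 stayed at 0 in most cells of both types. The call of B2m in L1210 cells and that of Bst2 with Gzmb were lost under some alternatives given below. Each sequence is the 180 bases before the gene's first base in RefSeq (GRCm38.p6), written 5′ to 3′ on the gene's strand. Capitals mark the fixed letters of the core of the interferon-stimulated response element (TTTC, any 2 bases, TTTC) and of the gamma-activated site (TTC, any 3 bases, GAA), read on both strands, so that the first also appears as GAAA, 2 bases, GAAA. The motifs may overlap each other.
Igtp (chr11:58199376-58199555, plus strand): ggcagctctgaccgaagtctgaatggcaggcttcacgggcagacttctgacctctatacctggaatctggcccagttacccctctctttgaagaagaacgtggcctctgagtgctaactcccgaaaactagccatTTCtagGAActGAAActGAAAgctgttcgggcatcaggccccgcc
Gbp3 (chr3:142559864-142560043, plus strand): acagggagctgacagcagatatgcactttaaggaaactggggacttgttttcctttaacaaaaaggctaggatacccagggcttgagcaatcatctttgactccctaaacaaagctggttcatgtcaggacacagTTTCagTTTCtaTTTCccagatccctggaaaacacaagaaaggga
Irf8 (chr8:120736178-120736357, plus strand): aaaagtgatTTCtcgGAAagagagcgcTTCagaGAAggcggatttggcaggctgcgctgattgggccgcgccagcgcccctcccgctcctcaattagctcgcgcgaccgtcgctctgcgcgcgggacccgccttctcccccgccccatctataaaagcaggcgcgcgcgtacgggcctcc
Irf1 (chr11:53769834-53770013, plus strand): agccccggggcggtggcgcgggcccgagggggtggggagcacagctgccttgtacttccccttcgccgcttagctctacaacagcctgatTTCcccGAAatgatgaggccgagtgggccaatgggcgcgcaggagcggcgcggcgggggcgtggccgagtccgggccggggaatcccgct
B2m (chr2:122147507-122147686, plus strand): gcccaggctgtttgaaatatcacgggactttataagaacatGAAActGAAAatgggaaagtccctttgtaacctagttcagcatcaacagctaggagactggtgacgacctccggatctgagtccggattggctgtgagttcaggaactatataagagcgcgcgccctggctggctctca
Bst2 (chr8:71537473-71537652, minus strand): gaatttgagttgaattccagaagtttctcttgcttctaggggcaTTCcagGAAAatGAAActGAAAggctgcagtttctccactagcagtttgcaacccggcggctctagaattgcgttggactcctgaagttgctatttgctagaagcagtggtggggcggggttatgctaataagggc
Isg15 (chr4:156200819-156200998, minus strand): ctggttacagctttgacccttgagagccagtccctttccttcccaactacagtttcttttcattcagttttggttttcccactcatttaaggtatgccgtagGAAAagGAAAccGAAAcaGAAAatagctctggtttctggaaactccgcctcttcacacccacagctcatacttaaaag

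Promoters of 300 bases, from 250 before to 50 after the start, were found for 28 of the 35 genes. The response element core was present in 12 of the 28 genes (B2m, Bst2, Gbp2, Gbp3, Ifit1, Ifit3, Igtp, Irgm1, Isg15, Psme1, Rsad2 and Stat2), against 3.99% of the 27025 genes with a promoter in the same table. The gamma-activated site was present in 8 (Bst2, Ifi35, Ifit2, Igtp, Irf1, Irf8, Isg20 and Psmb8), against 9.55%. One or both were present in 18 of 28 genes, 64.3%, against 12.9% of all. These are matches of letters and not measured binding. The sets cut across the expression groups described below: Isg15, with 3 copies of the core, was near 0 in both cell types, and B2m, with 1, was among the most abundant transcripts of the list.

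The levels of the 35 genes covered a wide range. TPM are scaled for transcript length, so levels of different genes can be set side by side on this scale. In CD8+ T-cells the 3 MHC class I chains summed to a median of 4602 TPM per cell (432 to 7517) and the 5 immunoproteasome and PA28 genes to 2629 TPM (1030 to 7237). Peptide transport and loading came to 352 TPM (0 to 726), the GTPases to 298 TPM (0 to 1280), the antiviral genes to 263 TPM (0 to 2412) and the regulators to 152 TPM (2.47 to 599). In L1210 cells the order began in the other way, with 1285 TPM (234 to 2184) for the immunoproteasome genes and 1162 TPM (340 to 2035) for the class I chains. Regulators followed with 194 TPM (0 to 442), then transport with 159 TPM (0 to 326), antiviral genes with 142 TPM (0 to 365) and GTPases with 82.8 TPM (0 to 311). The antigen presentation genes were present in nearly every cell of both types, while the classical antiviral genes were sparse: 6 of the 11 were above 0 TPM in fewer than 20% of CD8+ T-cells and 8 of 11 in fewer than 20% of L1210 cells.

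**Figure D1:**
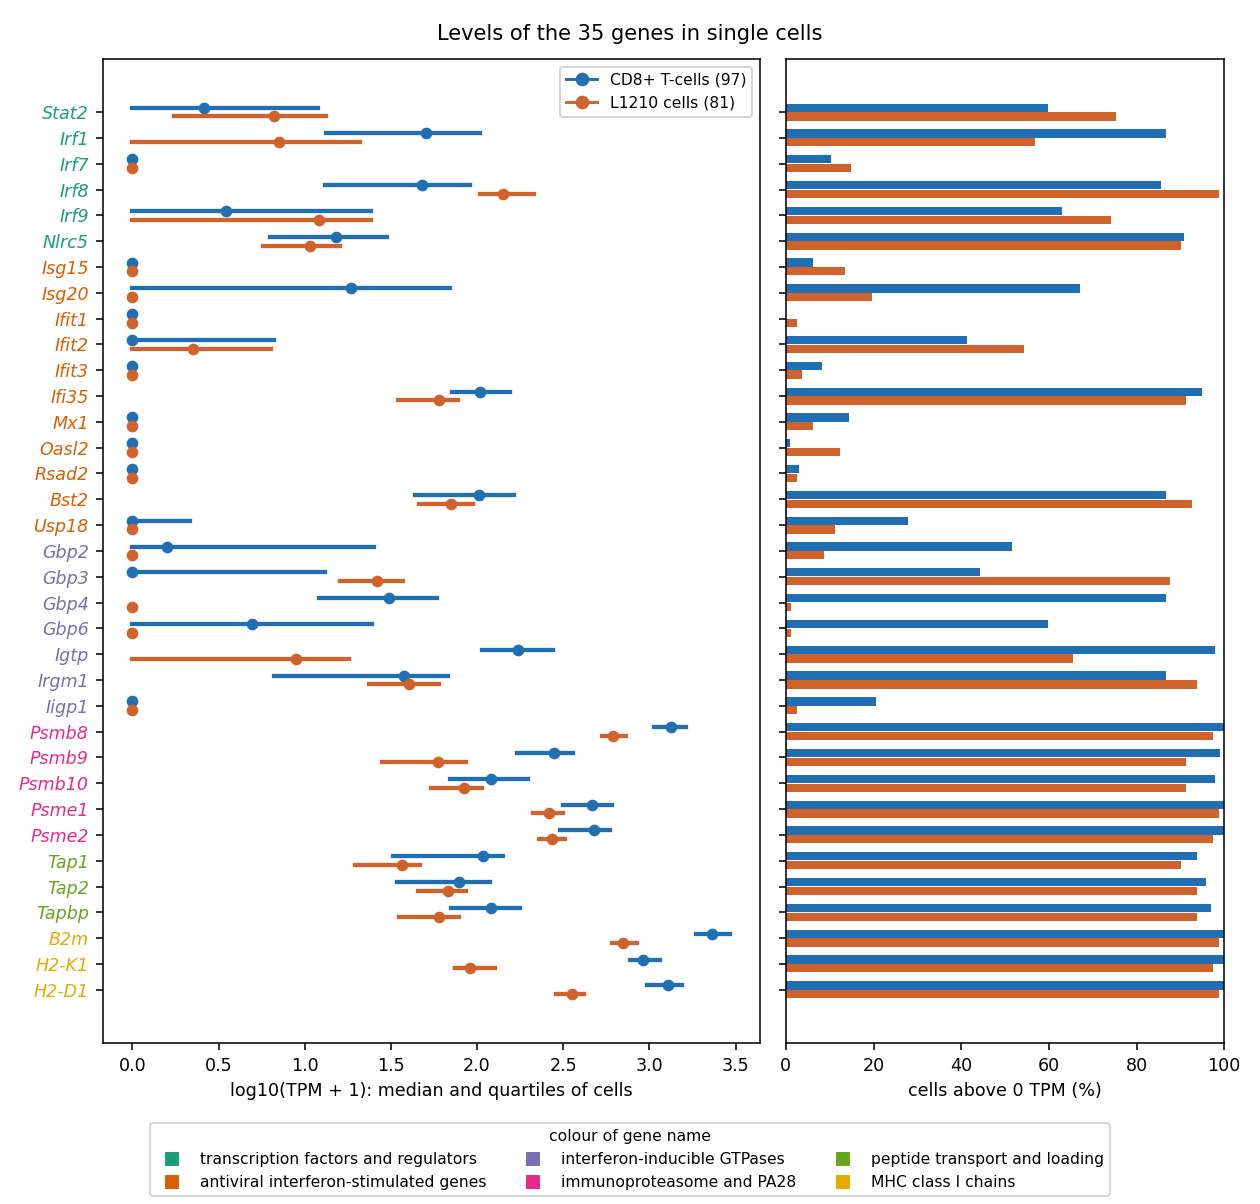
Levels of the 35 genes in 97 CD8+ T-cells (blue) and 81 L1210 cells (orange). The left panel gives log10(TPM + 1), with points at the median of the cells and lines from the lower to the upper quartile, and the right panel the percentage of cells above 0 TPM. B2m reached a median of 2319 TPM in CD8+ T-cells and 702 TPM in L1210 cells, while Isg15, Ifit1, Ifit3, Mx1, Oasl2, Rsad2, Irf7 and Iigp1 had a median of 0 in both.

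To compare the cell types, each lineage was reduced to its mean of ln(TPM + 1), and 34 lineages of CD8+ T-cells were set against 26 of L1210 cells with limma across 11371 genes, with Benjamini-Hochberg adjustment over all of them. A gene entered the test where over 10% of either type's cells had an ln(TPM + 1) above 1. This held for 30 of the 35 members, and Ifit1, Ifit3, Mx1, Oasl2 and Rsad2 were too sparse. Of the 30, 19 were higher in CD8+ T-cells at an adjusted p under 0.05, against 13.5% of all genes tested, and 2 were lower, against 50.1% of all genes. The median difference, CD8 minus L1210, was 0.65 on the ln scale over the 30 members and -0.41 over all 11371 genes, so the members lay above a background that was itself shifted downwards. L1210 libraries had more genes above 0 TPM, and with the number of detected genes as a covariate the median over all genes was -0.15. The share of higher calls among all genes called was then 37.3% instead of 21.3%. The 21 members called were then called again, together with Bst2, Nlrc5 and Tap2. Without the lineage CD8_83 the 21 were called too, with differences from -1.78 to 3.23.

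All 3 MHC class I chains were higher in CD8+ T-cells. B2m, the light chain of every class I molecule, ranged from 214 to 5016.5 TPM (median 2319) in the 97 CD8+ T-cells and from 0 to 1298 TPM (median 702) in the 81 L1210 cells. The lower quartile of the CD8+ T-cells, 1857 TPM, lay above the highest L1210 cell. The difference of lineage means was 1.28 ± 0.13 on the ln scale (SE, a ratio of TPM + 1 of 3.60, limma, adjusted p = 7.26e-14). H2-K1, a heavy chain, ranged from 2.93 to 2422 TPM (median 917) in CD8+ T-cells and from 0 to 340 TPM (median 90.5) in L1210 cells, again with the lower CD8 quartile of 773 TPM above every L1210 cell. Its difference was 2.19 ± 0.14 (SE, ratio 8.93, limma, adjusted p = 2.73e-23). H2-D1, the second heavy chain, ranged from 63.1 to 2457 TPM (median 1271) and from 0 to 745 TPM (median 353), with a difference of 1.31 ± 0.14 (SE, ratio 3.72, limma, adjusted p = 1.02e-12). The heavy chains are the least certain of these values, because 24.01% of the 30-base windows of the H2-K1 transcripts and 28.3% of those of H2-D1 recur in other genes, each other and H2-Q7 among them. The mm10 genome is that of C57BL/6J, whereas L1210 derives from DBA mice with other class I alleles, and the part this plays in the counts was not tested. B2m shares no such window.

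All 5 genes of the immunoproteasome and PA28 were higher in CD8+ T-cells. Psmb8, whose product replaces the constitutive catalytic subunit of Psmb5, ranged from 397 to 4762 TPM (median 1333) in CD8+ T-cells and from 0 to 1336 TPM (median 611) in L1210 cells, and the cells of the types overlapped. Its difference was 0.99 ± 0.12 on the ln scale (SE, limma, adjusted p = 1.61e-10). Psmb9, which replaces Psmb6, had a median of 279 TPM in CD8+ T-cells (0 to 791) and of 58.3 TPM in L1210 cells (0 to 379), and a difference of 1.66 ± 0.18 (SE, limma, adjusted p = 2.89e-12). Psmb10, which replaces Psmb7, differed less, by 0.72 ± 0.20 (SE, limma, adjusted p = 0.00148), as did the PA28 subunits Psme1 (0.59 ± 0.10, adjusted p = 8.43e-07) and Psme2 (0.64 ± 0.12, adjusted p = 7.55e-06), although 33.8% of the windows of Psme2 recur in Psme2b and a pseudogene.

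The constitutive counterparts were nearly level, with median TPM of 540 and 544 for Psmb5, 438 and 445 for Psmb6 and 309 and 304 for Psmb7 in CD8+ T-cells and L1210 cells. The share of the inducible subunit in each pair therefore differed with the inducible gene. Psmb8 made up 72.2% ± 6.08 of the sum of Psmb8 and Psmb5 in CD8+ T-cells (SD, n = 34 lineages) and 53.04% ± 8.97 in L1210 cells (SD, n = 26). For Psmb9 the shares were 36.9% ± 12.1 and 13.1% ± 7.73, and for Psmb10 they were 31.5% ± 10.1 and 20.05% ± 6.22. These shares are descriptions and were not tested. By transcript, Psmb8 was the larger part of its pair in CD8+ T-cells, with 51.3 to 95.3% per cell. In L1210 cells it was near parity, with 0 to 100% per cell and a median of 52.5%. Psmb9 and Psmb10 were the smaller part of their pairs in the average lineage of either type. Of 16 constitutive proteasome genes tested, Psma2 (0.43), Psmb2 (0.48) and Psma1 (0.37) were higher in CD8+ T-cells and the activator Psme4 (-0.47) lower.

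In peptide transport and loading, 2 of 3 genes were higher in CD8+ T-cells. Tap1, a subunit of the peptide transporter, ranged from 0 to 311 TPM (median 106.5) in CD8+ T-cells and from 0 to 112 TPM (median 35.8) in L1210 cells, with a difference of 0.90 ± 0.24 (SE, limma, adjusted p = 0.000816). Tapbp, which encodes tapasin, differed by 0.73 ± 0.20 (SE, limma, adjusted p = 0.00117). Tap2, the other subunit of the transporter, had medians of 77.03 and 66.9 TPM and a difference of 0.11 with a 95% interval from -0.27 to 0.49, so that 1 subunit of the transporter passed and the other did not. The difference between the genes was not tested.

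The interferon-inducible GTPases held both the largest rises and 1 of the 2 falls. Igtp, an immunity-related GTPase that guards against intracellular pathogens, ranged from 0 to 663 TPM in CD8+ T-cells (median 171, 95 cells above 0) and from 0 to 46.6 TPM in L1210 cells (median 7.89, 53 cells above 0). Its difference was 3.21 ± 0.23 on the ln scale (SE, ratio 24.8, limma, adjusted p = 1.18e-20). The lower quartile of CD8+ T-cells, 105.6 TPM, lay above every L1210 cell. Gbp4, a guanylate-binding protein, was above 0 TPM in 84 CD8+ T-cells (median 29.7, highest 232 TPM) and in a single L1210 cell at 1.11 TPM, with a difference of 2.98 ± 0.23 (SE, limma, adjusted p = 8.07e-19). Gbp6 was above 0 TPM in 58 CD8+ T-cells and 1 L1210 cell (difference 1.71 ± 0.23, SE, limma, adjusted p = 1.81e-09), with 74.5% of its windows shared with Gbp10, Gbp4 and a related model. Gbp2 was above 0 TPM in 50 and 7 cells (difference 1.55 ± 0.27, SE, limma, adjusted p = 1.11e-06).

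Gbp3 went the other way. It was detected in 43 of the 97 CD8+ T-cells (median 0, highest 87.7 TPM) and in 71 of 81 L1210 cells (median 25.2, highest 80.95 TPM), and its difference was -1.82 ± 0.25 (SE, limma, adjusted p = 3.24e-09). The cells of the types overlapped, with more at 0 among the CD8+ T-cells, and the median of the 43 T-cells above 0 was 13.95 TPM. Gbp2 and Gbp3 are neighbours on chromosome 3 (GRCm38, 142620602 to 142638008 and 142560026 to 142573209), yet they pointed in opposite directions. Irgm1, another immunity-related GTPase, had medians of 36.4 and 39.4 TPM and a difference of -0.41 with a 95% interval from -0.91 to 0.09, at the median of all genes. Iigp1 was above 0 TPM in 20 CD8+ T-cells and 2 L1210 cells, and its call rested on few cells (difference 0.33 ± 0.14, SE, limma, adjusted p = 0.0329), being lost without the lineage CD8_21 or CD8_71 (adjusted p up to 0.0531), with a pseudocount of 0.1 TPM (0.0578) and without a gene filter (0.0585).

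**Figure D2:**
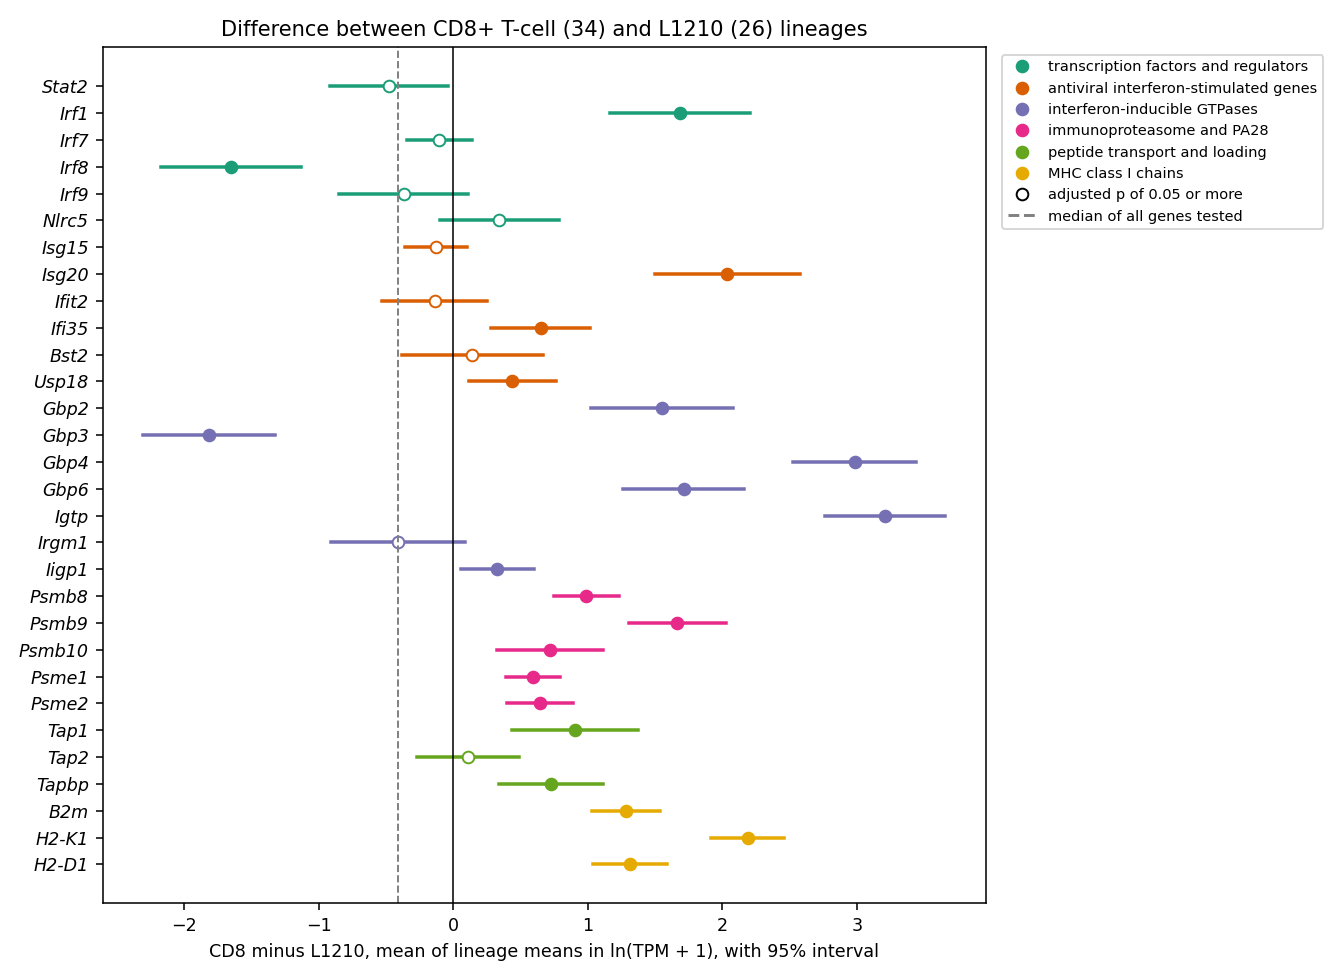
Difference between CD8+ T-cells (34 lineages) and L1210 cells (26 lineages) for the 30 genes tested, as CD8 minus L1210 in mean ln(TPM + 1) on the horizontal axis, with 95% intervals from limma. Filled points passed an adjusted p of 0.05, open points did not, and the dashed line marks the median of all genes at -0.41. Igtp lay farthest to the right at 3.21 and Gbp3 farthest to the left at -1.82.

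Among the regulators, 1 was higher and 1 was lower in CD8+ T-cells. Irf1, which activates class I and GTPase genes after interferon-gamma, ranged from 0 to 236 TPM in CD8+ T-cells (median 49.4) and from 0 to 62.1 TPM in L1210 cells (median 6.05), and differed by 1.69 ± 0.27 (SE, limma, adjusted p = 1.20e-07). Irf8, a factor of B-cell and myeloid development that interferon-gamma also induces, ranged from 0 to 442 TPM (median 46.96) in CD8+ T-cells and from 0 to 409 TPM (median 141) in L1210 cells. Its difference was -1.65 ± 0.26 (SE, limma, adjusted p = 1.79e-07), and the spread was the more unlike part: lineage means ran from 0.60 to 5.14 in CD8+ T-cells and from 3.64 to 5.92 in L1210 cells. Stat2 and Irf9, both of the type I complex, had lower means in CD8+ T-cells that did not pass (-0.48 ± 0.22, SE, limma, adjusted p = 0.0542, and -0.37 ± 0.24, adjusted p = 0.178). Nlrc5, the transactivator of class I genes, had medians of 14.3 and 9.76 TPM and a difference of 0.34 with a 95% interval from -0.10 to 0.79. Irf7, which amplifies type I interferon, was above 0 TPM in 10 CD8+ T-cells and 12 L1210 cells.

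Of the 11 antiviral genes 6 could be tested, and 3 were higher in CD8+ T-cells. Isg20, an exonuclease, was detected in 65 of the 97 CD8+ T-cells (median 17.6, highest 269 TPM) and in 16 of 81 L1210 cells (median 0, highest 271 TPM), with a difference of 2.04 ± 0.28 (SE, limma, adjusted p = 1.91e-09). Ifi35 differed by 0.65 ± 0.19 (SE, limma, adjusted p = 0.00232) and Usp18, which removes the modifier ISG15 from proteins, by 0.44 ± 0.16 (adjusted p = 0.0166). Bst2, the tetherin that holds budding virus at the membrane, did not pass, with medians of 100.95 and 69.7 TPM and an interval of the difference from -0.38 to 0.66. The remaining genes were found in fewer than 20% of the cells of either type, apart from Ifit2. Isg15, the ubiquitin-like modifier, was above 0 TPM in 6 CD8+ T-cells and 11 L1210 cells. Ifit1, an RNA-binding protein of the type I response, was above 0 in 0 and 2, its relatives Ifit3 in 8 and 3 and Ifit2 in 40 and 44 cells. Mx1, a dynamin-like GTPase, was above 0 in 14 and 5, Oasl2 in 1 and 10 and Rsad2, viperin, in 3 and 2 cells.

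Other genes of the pathway did not share one direction. Of 15 receptor and signalling genes tested, 5 were higher in CD8+ T-cells and 3 lower. The ligand-binding chain Ifngr1 of the interferon-gamma receptor was higher by 1.97, the kinase Jak1 by 1.11 and the inhibitor Socs1 by 1.77. The other receptor chain, Ifngr2, was lower (-1.48), as were Irf5 (-3.45) and Irf2 (-0.49). Of 43 other interferon-stimulated genes tested, 14 were higher, with the smallest p for Sp100 (3.10), Slfn2 (3.35), Tgtp1 (3.10) and Tgtp2 (1.91), and 16 lower, with the smallest p for Oasl1 (-3.52), Ifitm3 (-4.08), Slfn5 (-2.05) and Ifitm2 (-3.68). Of 19 other genes listed under class I presentation, 5 were higher, among them H2-Q7 (3.03) and the tapasin relative Tapbpl (1.43). A further 9 were lower, among them H2-Q10 (-2.63), H2-Q6 (-2.25) and H2-T23 (-1.09). The list was made by symbol, and 1 of the 5 was H2-Ke6 (1.07), whose part in presentation was not checked. The limits given for the heavy chains, shared sequence and DBA alleles read on the C57BL/6J genome, hold for these H2 genes too. H2-Q7 shares windows with H2-K1 and H2-D1, and the part this plays was not tested. Of 6 class II genes tested, H2-Oa was higher (1.09) and H2-Ob (-2.51) and Cd74 (-0.41) lower. The interferon genes themselves were almost silent, and none of 8 could be tested: 5 of the 8 were at 0 in every CD8+ T-cell and 5 of 8 in every L1210 cell. Ifng, the T-cell interferon, was detected in 9 of the 97 CD8+ T-cells, with a highest value of 41.4 TPM, and in 0 of 81 L1210 cells.

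Whether levels differed between lineages was tested in lineages with 2 or more cells, by limma's F-test over lineage terms. Cells of a lineage came from the same founder, and so from the same mouse or culture, which the labels do not name. The test therefore cannot tell a level kept by a lineage from a difference between mice or cultures. Cells of a lineage were also mostly close in time since division, which was a covariate only in an alternative. In CD8+ T-cells (90 cells, 27 lineages) 5 of the 28 members tested differed between lineages, against 12.9% of 9871 genes. They were Irf8 (F = 3.99, adjusted p = 8.79e-05), Gbp4 (F = 2.80, adjusted p = 0.00536), B2m (F = 2.54, adjusted p = 0.0124), Igtp (F = 2.34, adjusted p = 0.0238) and Gbp3 (F = 2.32, adjusted p = 0.0258). The share of 17.9% was close to the background, and no more is read from it. The immunoproteasome, transport and antiviral genes were not called, but some were under alternatives: Psmb8 with size factors, Tap1 with the number of detected genes as a covariate, and Bst2, Psme2, Tap1, Psmb8, Psmb9 and Psmb10 with rank-based scores.

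Irf8 was the member with the clearest lineages. In the lineage CD8_49 both cells were nearly without it, at 0.69 and 0.95 TPM, and in CD8_65 it read 0, 0, 0 and 11.3 TPM. In CD8_29 the 4 cells held 442, 108, 311 and 54.5 TPM, and in CD8_13 the 2 cells held 170 and 163 TPM. The cells of these 4 lineages, picked as extremes, did not overlap, but those of others did. In CD8_9, a low lineage, 1 cell held 87.7 TPM and 2 were at 0, and in CD8_33, a high one, 1 cell was at 0 beside 246, 203 and 268 TPM.

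Gbp4 and Gbp3 were highest in another lineage than Irf8, while Igtp shared its highest lineage, CD8_29. Gbp4 was highest in CD8_87, at 124, 232, 133 and 33.01 TPM, where Irf8 read 0.69, 3.01, 19.5 and 0.53 TPM. In CD8_83 the order was turned round, with Gbp4 at 0, 4.23, 19.3 and 0 TPM and Irf8 at 121, 245, 166 and 92.6 TPM. Gbp3 was likewise highest in CD8_87, at 41.45, 87.7, 29.2 and 17.1 TPM, and was at 0 in every cell of 12 of the 34 lineages. Igtp was low in all 3 cells of CD8_91, at 8.48, 6.81 and 36.9 TPM, against 466, 205, 607 and 363 TPM in CD8_29. B2m had a narrow range, with lineage means from 6.85 in CD8_16 to 8.20 in CD8_65 on the ln scale among those of 2 or more cells.

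Some of these calls rested on single lineages. Without CD8_83, the lineage nearly without CD8 transcripts, Irf8 (adjusted p = 0.000364), Gbp4 (0.0151), B2m (0.0146) and Igtp (0.0316) passed and Gbp3 did not (adjusted p = 0.0514). Gbp3 was also lost without CD8_59 or CD8_87 (adjusted p up to 0.131) and with at least 4000 detected genes (0.0568), and Igtp without CD8_29 or CD8_91 (adjusted p up to 0.101), with size factors (0.0562) and with hours since division as a covariate (adjusted p = 0.180). Of the other genes of the pathway, 3 of 14 receptor and signalling genes differed between CD8+ T-cell lineages (Socs1, Socs3 and Jak1). So did 10 of 36 other interferon-stimulated genes (led by Ifi47, Ifitm2, Ifitm3 and Gbp8) and 0 of 16 other genes listed under class I presentation. The same held for 1 of 3 class II genes (H2-DMa) and 3 of 16 constitutive proteasome genes (Psma7, Psmb4 and Psma3).

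**Figure D3:**
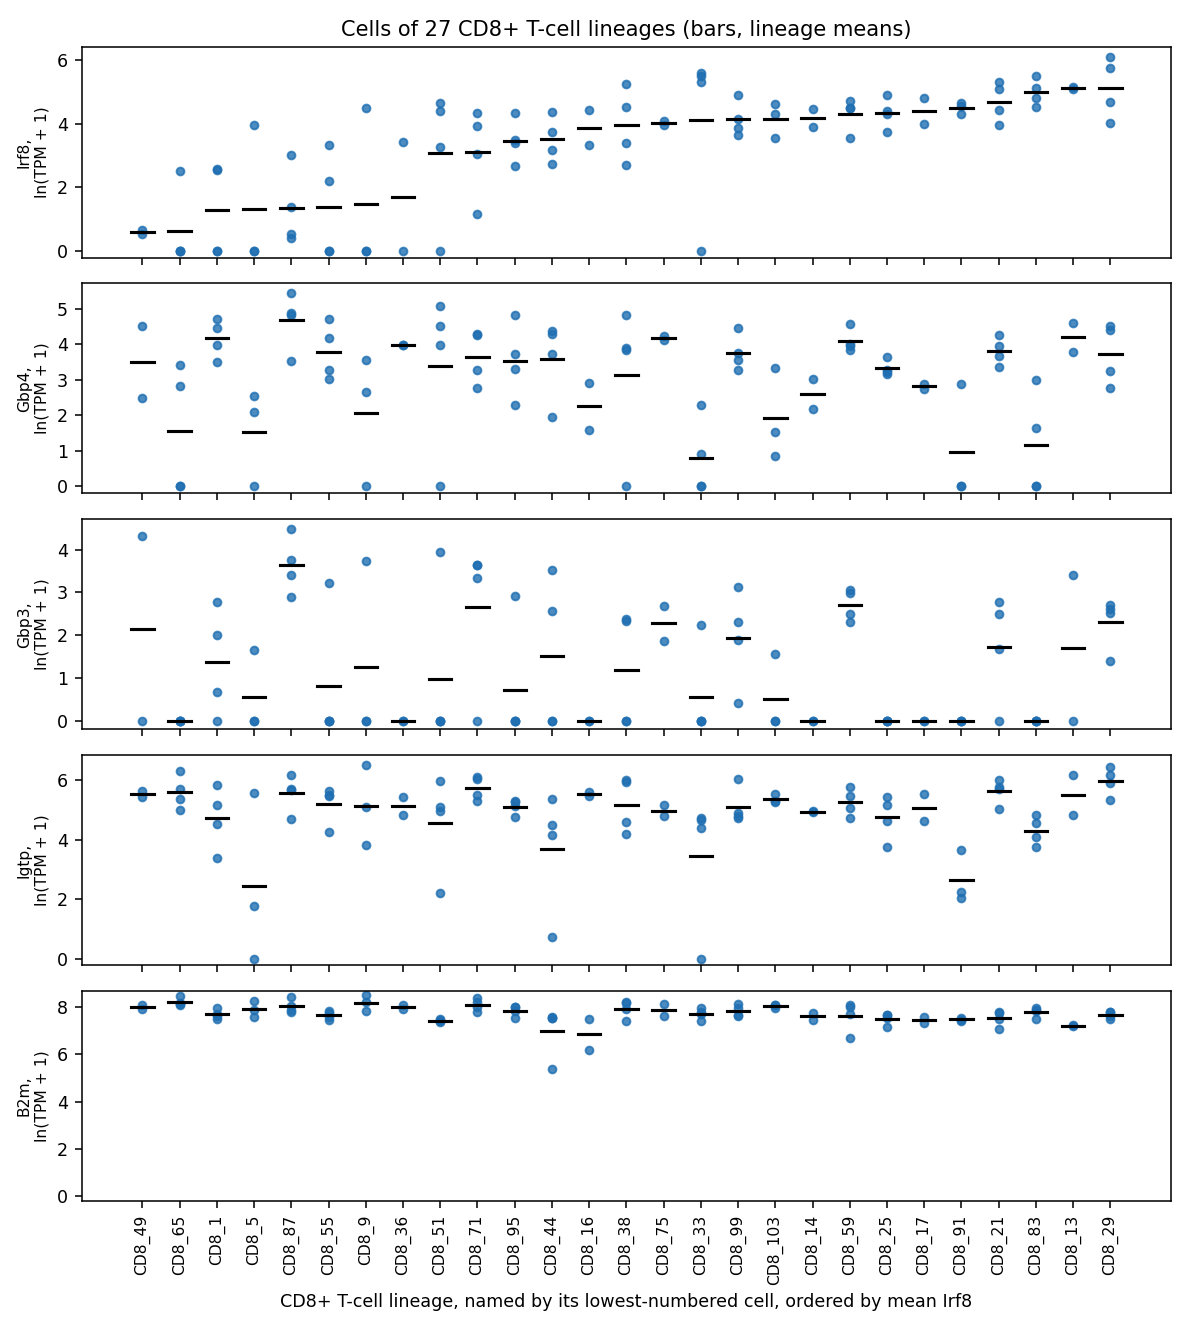
Level of Irf8, Gbp4, Gbp3, Igtp and B2m, as ln(TPM + 1) on the vertical axes, in the 90 cells of the 27 CD8+ T-cell lineages with 2 or more cells. Points are cells, bars are lineage means, and lineages run along the horizontal axis in the order of their mean Irf8, from 0.60 in CD8_49 to 5.14 in CD8_29. The order of Gbp4 and Gbp3 is another one, with both highest in CD8_87.

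Distances between sisters and cousins come from the same values and lineages as the F-test, so they describe its calls and add no support. Irf8 differed by a mean of 1.17 on the ln scale between 43 pairs of sisters, 1.42 between 72 pairs of cousins and 1.93 between 4541 unrelated pairs of CD8+ T-cells. For Gbp3 the means were 1.04, 1.22 and 1.55 and for Gbp4 they were 1.15, 1.32 and 1.64. For Igtp sisters were closer (0.84) while cousins (1.15) were as far apart as unrelated cells (1.17). Over the members tested, sisters lay a median of 10.1% and cousins 11.04% closer than unrelated cells, beside 8.69% and 7.86% over all genes.

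In L1210 cells (79 cells, 24 lineages) 4 of 25 members differed between lineages, 16% against 12.9% of 10617 genes: Nlrc5 (F = 2.67, adjusted p = 0.0154), Stat2 (F = 2.29, adjusted p = 0.0403), B2m (F = 2.29, adjusted p = 0.0405) and Bst2 (F = 2.24, adjusted p = 0.0445). The lineage L1210_8 had 2 cells with 2718 and 4951 genes above 0 TPM, B2m at 0 and 788 TPM, and Bst2 and Nlrc5 at 0 in both. Without it 0 of 25 members were called by limma (adjusted p from 0.0834 for B2m to 0.618 for Bst2), as with the number of detected genes as a covariate. Irf8, Igtp and Gbp3 did not pass in L1210 cells (limma, adjusted p = 0.342, 0.166 and 0.583), and Gbp4 was too sparse there to be tested. Whether the cell types differed in this respect was not tested.

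Pairs of members with a high rho between cells were a larger share than among genes at large, though by little in L1210 cells without residuals. To lessen the part of the number of detected genes, Spearman's rho was computed on residuals of ln(TPM + 1) over it, as a description over cells that share lineages. For a gene at 0 in many cells, the residuals of those cells follow that number alone. In 97 CD8+ T-cells 60 of 406 pairs of members had a rho above 0.3, or 14.8%, against 2.14% of all pairs of genes tested. In 81 L1210 cells it was 47 of 300 pairs, or 15.7%, against 3.33%. Without the residuals the shares were 18.7% against 4.93% in CD8+ T-cells and 6.33% against 4.28% in L1210 cells. Most of the excess in L1210 cells thus came only with the residuals. The pairs of all genes were not matched to the members for level. Among deviations from lineage means in CD8+ T-cells the shares were 7.14% against 4.08%, and among the 34 lineage means 35.96% against 20.3%.

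Peptide transport and the class I heavy chains held the highest rho in CD8+ T-cells. The transporter, tapasin and the heavy chains rose and fell together, with rho of 0.64 for Tap2 and Tapbp, 0.66 for H2-K1 and H2-D1, 0.57 for Tapbp and H2-K1, 0.54 for Tap1 and Tap2 and 0.52 for H2-D1 and Nlrc5. Gbp4 went with them (0.56 with Tapbp). The immunoproteasome and PA28 genes had a median of 0.37 over their 10 pairs, with 0.50 for Psmb8 and Psme2. B2m had rho of 0.30 to 0.45 with these 5 genes and of 0.04 to 0.16 with the 3 transport genes, beside 0.37 with H2-K1 and 0.32 with H2-D1. The heavy chains had rho of -0.14 to 0.32 with the immunoproteasome and PA28 genes, highest with Psmb9 (0.29 for H2-K1 and 0.32 for H2-D1), and of 0.39 to 0.57 with the transport genes. Differences between these rho were not tested. Immunoproteasome genes and transport genes had a median of -0.10 over 15 pairs, down to -0.39 for Psme2 and Tap1 and -0.35 for Psmb8 and Tap1. Psmb8 and Tap1 are neighbours on chromosome 17 (GRCm38, Tap1 from 34187553 to 34197225 and Psmb8 from 34197721 to 34201454), where 7 of the members lie.

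The GTPases had a median of 0.25 over 21 pairs, highest for Gbp2 and Gbp3 at 0.49, although these 2 genes differed in opposite directions between the cell types. The antiviral genes did not form a block, with a median of 0.05 over 10 pairs. In L1210 cells Tap2 and Tapbp (0.58) and B2m and H2-D1 (0.54) led, and Psmb8 and Psmb10 reached 0.48. Isg20, at 0 in most L1210 cells, was negative with most others on residuals, down to -0.51 with Psme2. Its residuals there mainly follow the number of detected genes. With Psmb8 its rho was -0.48 on residuals and -0.21 without them, so these values are not read as a link between the genes. The rho of H2-K1 with H2-D1 carries the shared sequence named above. Windows of other genes recur elsewhere too: 27.1% of those of Tapbp, 14.5% of Tap2, 4.15% of Tap1, 15.6% of Gbp4 and 16.2% of Igtp. Tap1 and Tap2 share windows with each other. The part this plays in their levels and rho was not tested.

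**Figure D4:**
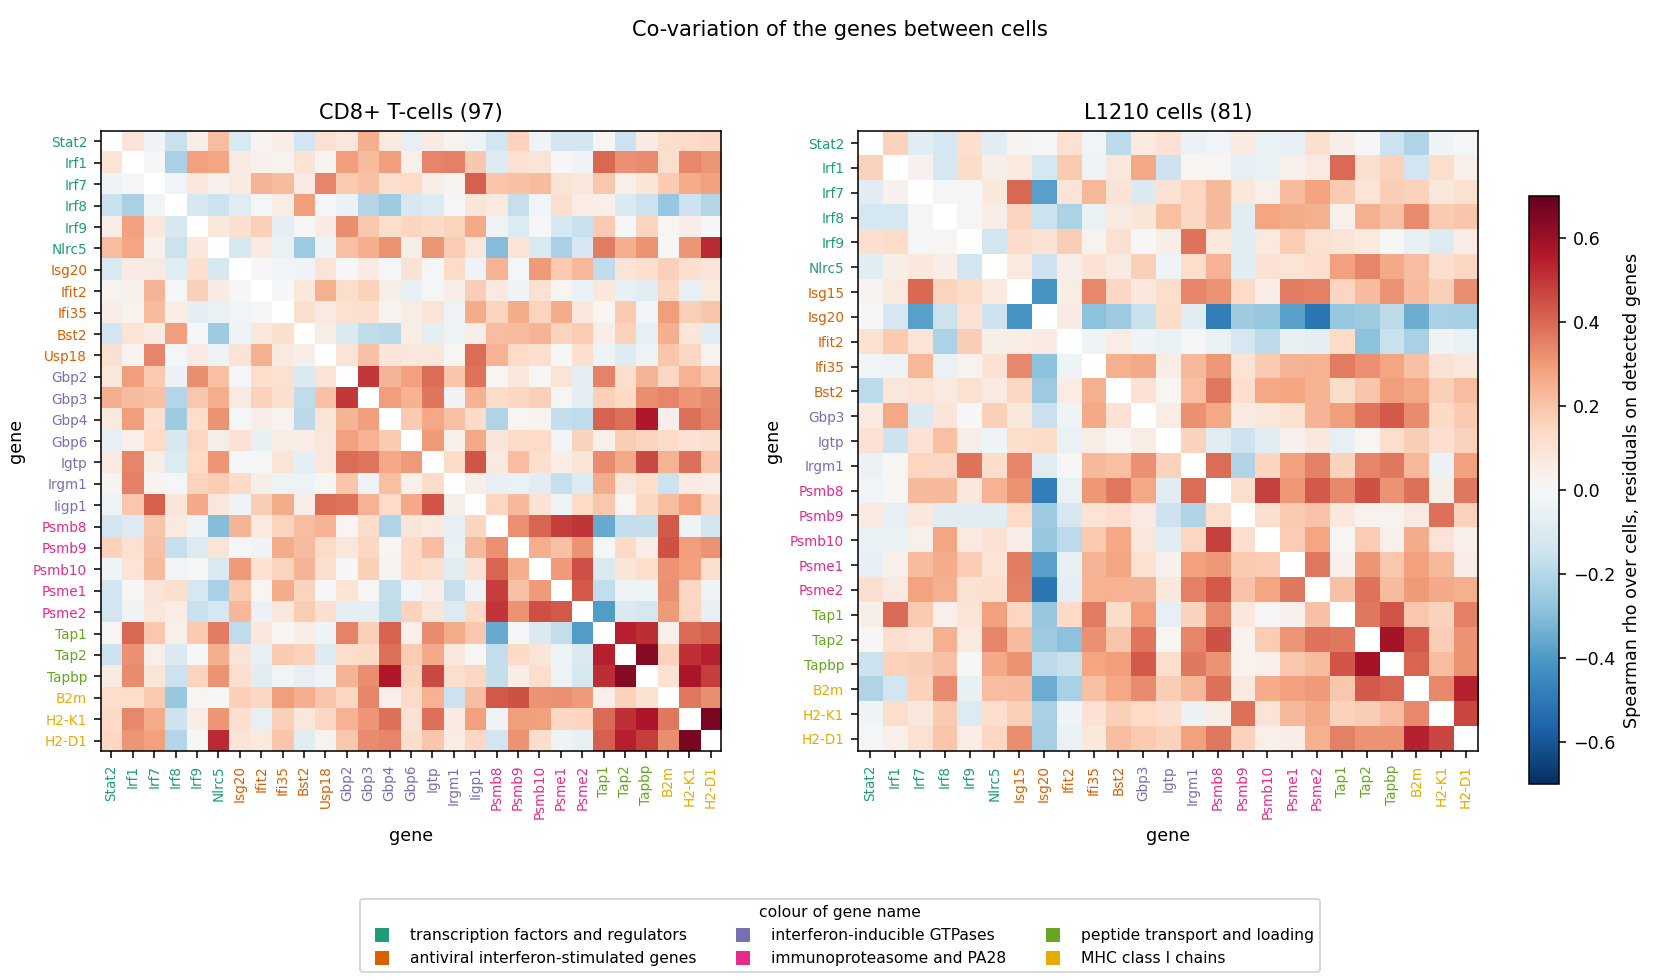
Spearman's rho over cells of residuals on the number of detected genes, for each pair of the 29 members tested in CD8+ T-cells (left, 97 cells) and the 25 tested in L1210 cells (right, 81 cells). Red is positive, blue is negative, and genes are ordered by role. In CD8+ T-cells the transport genes and class I heavy chains are red at the lower right, up to 0.66, and Psmb8 and Psme2 are blue against Tap1, down to -0.39.

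The genes outside the list that were most like it were ranked by their mean rho with the members, without residuals. In CD8+ T-cells the first 10 included Galns, Gm12250, Aldh2, Cytip, Gm5547, Gpsm3, Itgb2, Sh3bp5 and Acpp (0.21 to 0.19). In L1210 cells the first 10 were Pisd-ps3 (0.25), Psap, Grn, Pofut1, Cyp51, Lamc1, 1110007C09Rik, Rnf31, Gabarap and 2610005L07Rik (0.23 to 0.21). With residuals on the number of detected genes Ccr7 came first in CD8+ T-cells (0.22) and none of these genes was among the first 10, so the order in CD8+ T-cells depended on the number of detected genes. In L1210 cells Psap then came first (0.28) and Gabarap was again among the first 10 (0.27).

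Ifng, whose product induces many of these genes, was above 0 TPM in 9 cells of 6 lineages, from 1.23 TPM in CD8_22 to 41.4 TPM in CD8_31, and these cells had 7301 to 10905 genes above 0 TPM. Across the 34 lineage means, 0 of 29 members had a slope on Ifng at an adjusted p under 0.05 by limma, positive (0.38% of 9995 genes) or negative (0% of genes). At an unadjusted p under 0.05 there was 1 member, beside 1252 of the 9995 genes. Within lineages 0 of 28 members had such a slope at an adjusted p under 0.05, against 0.0101% of 9871 genes. There 1 member had an unadjusted p under 0.05, beside 220 of the 9871 genes. Only 9 cells were above 0, which limits what these slopes can show.

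The member at an unadjusted p under 0.05 in both fits was Iigp1, an immunity-related GTPase. It was above 0 TPM in 6 of the 9 cells with Ifng and in 14 of the other 88. The cell with its highest level, CD8_53 at 160.5 TPM, had Ifng at 33.45 TPM and also the highest Gbp2, at 292 TPM. Its slope within lineages was 0.63 ± 0.15 ln units per ln unit of Ifng (SE, limma, adjusted p = 0.513). Between lineages it was 0.32 ± 0.15 (SE, limma, adjusted p = 0.386). Of the 88 cells without Ifng, Igtp was above 0 TPM in 86, Irf1 in 75 and Gbp4 in 75. More frequent detection in the 9 cells with Ifng was not particular to Iigp1. Gbp3 was above 0 TPM in 8 of the 9 and 35 of the 88 cells, and Stat2 in 9 and 49. Oasl2 (0 and 1) and Rsad2 (0 and 3) went the other way. Each of the 9 cells had more genes above 0 TPM than the CD8+ T-cell median of 6862.

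Gzmb, the cytotoxic granule protease, was found in 87 of the 97 CD8+ T-cells (median 607, highest 7488 TPM) and differed strongly between lineages (F = 12.1, limma, adjusted p = 9.73e-15). Across the 34 lineage means, 2 of 29 members rose with Gzmb, against 4.55% of 9994 genes, and 0 fell, against 0.11%. Irf8 had a slope of 0.41 ± 0.07 ln units per ln unit of Gzmb (SE, limma, adjusted p = 0.00046) and Bst2 one of 0.27 ± 0.07 (SE, limma, adjusted p = 0.0135). The lineage with the lowest Gzmb, CD8_9, had a mean ln(TPM + 1) of 0.20 for Gzmb and 1.495 for Irf8. CD8_59 did not follow, with Gzmb at 1.12 and Irf8 at 4.31, nor did CD8_87, with 6.35 and 1.34.

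The slope of Irf8 passed in all alternatives run, with 0.34 (limma, adjusted p = 0.0222) with the number of detected genes as a covariate and 0.40 without CD8_83 (adjusted p = 0.000736). Bst2 was called without CD8_83 (0.27, adjusted p = 0.0166). It did not pass with that covariate (adjusted p = 0.132), with rank-based scores (adjusted p = 0.182), with at least 4000 detected genes (adjusted p = 0.0911) or without the 4 libraries that stood apart (adjusted p = 0.0660). Within lineages, between cells of 1 founder, 0 of 28 members followed Gzmb by limma, against 0% of 9870 genes. At an unadjusted p under 0.05 there was 1 member, beside 718 of the 9870 genes. Outside the list, Sp100 fell with Gzmb (slope -0.21, adjusted p = 0.0116) and the proteasome subunit Psma3 rose (0.10, adjusted p = 0.0459).

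**Figure D5:**
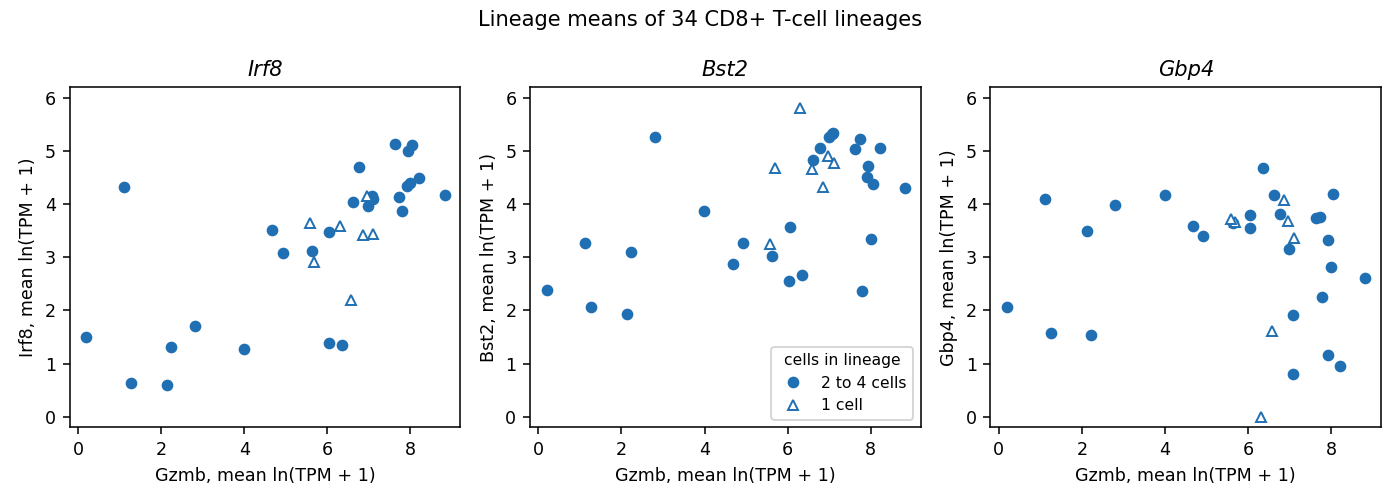
Mean ln(TPM + 1) of Irf8, Bst2 and Gbp4 (vertical axes) against that of Gzmb (horizontal axis) in the 34 CD8+ T-cell lineages. Filled circles are lineages of 2 to 4 cells and triangles are single cells. Irf8 and Bst2 had slopes of 0.41 and 0.27. Gbp4, which like Irf8 differed between lineages but was not called with Gzmb, is shown beside them.

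Time since division was recorded for 94 CD8+ T-cells (0.5 to 9.48 h) and 81 L1210 cells (0.354 to 12.8 h). Slopes on it were fitted over lineage means (31 and 26 lineages), and none of the members was called. Few genes of any kind were called, so these fits say little about change with time between single cells. In CD8+ T-cells 0 of 29 members were called by limma, against 0.0903% of 9965 genes. At an unadjusted p under 0.05 there were 8 members, beside 1285 of the 9965 genes. The 8 slopes were negative: Igtp (-0.19 ± 0.05 per hour, SE, limma, adjusted p = 0.136), Tapbp (-0.17), Tap2 (-0.15), Tap1 (-0.19), Irf9 (-0.18), Nlrc5 (-0.17), Irf1 (-0.15) and H2-K1 (-0.07). The median slope was also negative over all genes, at -0.035, beside -0.048 over the members. The share of negative slopes among the 1285 genes was not taken, so no more is read from the shared sign. In L1210 cells 0 of 25 members were called by limma, against 0% of 10534 genes. There 1 member (Irgm1, -0.08 per hour) had an unadjusted p under 0.05, beside 584 of the 10534 genes. In a fit with an interaction term, 0 of 30 members had slopes that differed between the cell types by limma, as against 1 of 11358 genes. At an unadjusted p under 0.05 there were 8 members. The number of all genes at that threshold was not taken, so no more is read from these 8.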

How the data were processed

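Each library was 1 cell of a lineage tracked in the device. Per the labels, the authors deposited TPM values, estimated with RSEM 1.2.3 on mm10 and not log-transformed. TPM sum to 1000000 in each library and keep no read depth, so precision at low levels is unknown. No count test was possible. The 45S precursor Rn45s took a median of 22.6% (CD8+ T-cells) and 21.9% (L1210) of TPM. Values were ln(TPM + 1), with a pseudocount of 1. Lineages came from the sister and cousin labels.

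The main tests used limma 3.58.1 in R 4.3.3 (trend, robust, 2-sided, Benjamini-Hochberg over all genes tested, threshold 0.05). They were also run on simulated data, with each gene's values shuffled between cells and changes added to genes found in most cells. Such data lack the links between cells of 1 lineage and between genes, and do not speak for sparse genes. Python 3.11.15, numpy 2.4.6, pandas 2.3.3, scipy 1.17.1 and matplotlib 3.10.9 served for descriptions and figures. Alternatives changed the pseudocount, gene filter, minimum of detected genes, scaling, covariates, weights and rank scores, or left out lineages or libraries. The members and lists were chosen with earlier results of these data known. Genes named are the members, Ifng, Gzmb, the first 4 called per list and direction, and the 10 most alike genes. Genes shown for the promoters were chosen after their values were seen. Positions are from GENCODE vM21. Some genes that the rule names are not reported here.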

Additional observations from a re-analysis of the deposited data

How the results depend on the processing

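No value of a gene called changed direction under the alternatives run. Cell type calls moved little: higher members numbered 18 to 19 with 1 lineage left out, and lower members 2 to 3, or 4 with at least 4000 detected genes (Irgm1 and Stat2 added). Members differing between CD8+ T-cell lineages numbered 8 with the number of detected genes as covariate, 14 with rank-based scores, and 4 to 7 with 1 lineage left out. In L1210 cells they numbered 2 without a gene filter, 2 with at least 4000 detected genes, 0 with the detected genes as covariate, 1 with hours as covariate, 1 without the 4 libraries that stood apart, and 0 to 6 with 1 lineage left out. All genes called in L1210 cells fell from 1371 to 499 with detected genes as covariate, 679 with at least 4000 detected genes and 501 without the 4 libraries. For Ifng between lineages 1 member (Mx1) was called without a gene filter, and 0 to 1 with 1 lineage left out (Iigp1 without CD8_77, a single cell). The genes called numbered 38, but 451 without a filter and 2 with lineages weighted by their cells. For Ifng within lineages 1 member (Iigp1) was called with a pseudocount of 10 TPM, and 0 to 1 with 1 lineage left out (Iigp1 without CD8_21). For Gzmb between lineages 1 member (Irf8) was called with at least 4000 detected genes, with detected genes as covariate, with rank-based scores and without the 4 libraries, and 2 throughout with 1 lineage left out. Genes called there were 466, but 98 with detected genes as covariate, 49 with rank-based scores, 829 with hours as covariate and 878 with weights. The cause of these shifts was not tested. Leaving out the 4 libraries and weighting lineages were chosen after seeing the data. No paired analysis was possible because cell numbers only name cells and pair nothing across the cell types. Genes at 0 in most cells could not be tested, and with TPM alone a 0 cannot be told from a transcript that was missed.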
